A study of Homo sapiens with 8 samples.

Results

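The genes described here encode the proteins of the mitochondrial ribosome that carry an MRPL or MRPS symbol. They were taken from the expression table by symbol, MRPL or MRPS followed by a number and at most a letter A to C, with at least 1 TPM (transcript level per gene length) in at least 2 of the 8 libraries. All 77 matching genes of the 26364 in the table passed this filter, and none was lost. By protein, 50 belong to the large subunit of the mitochondrial ribosome and 26 to the small subunit. MRPS30 and MRPS18A are among the 50, since their proteins sit in the large subunit in spite of their names. MRPS36 was placed in neither subunit, as its protein belongs to the oxoglutarate dehydrogenase complex.

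MV4-11 is a human acute myeloid leukemia (AML) cell line with an internal tandem duplication in FLT3 (FLT3-ITD) and an MLL-AF4 fusion, and all groups share these alterations. Cells received the vehicle DMSO (control), TCP (tranylcypromine, an inhibitor of the histone demethylase LSD1) at 5 μM, palbociclib (an inhibitor of the kinases CDK4 and CDK6) at 0.5 μM, or the combination of both molecules. Each of the 4 groups held 2 libraries, collected on day 4 by the labels, whereas the study's methods describe a day of CDK6 inhibitor alone before both molecules were given together, so the exposure to TCP alone is uncertain. The labels do not say whether replicates were separate cultures, and the p-values below measure only the spread between these libraries, which may be technical.

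Mitochondria translate the few mRNAs of their own genome on dedicated ribosomes, and every protein made there is a subunit of the respiratory chain or of the ATP synthase. The ribosomal RNAs come from mitochondrial DNA, while all ribosomal proteins are encoded in the nucleus, made in the cytosol and imported. The small subunit binds and decodes the mRNA, and the large subunit joins the amino acids and releases the peptide through its exit tunnel. Many of these proteins have a homolog in the bacterial ribosome and others are found only in mitochondrial ribosomes. AML cells are known for their dependence on mitochondrial translation and respiration.

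The values are levels per length that sum to 1000000 in every library, so they carry no sequencing depth, and depth is unknown here. The number of genes at 1 TPM or more ranged from 13320 to 13640 per library. The 10 most abundant genes took 9.12% to 9.67% of all TPM in the control and TCP libraries and 14.0% to 15.8% in the palbociclib and combination libraries, which lowers the share left for all other genes. In the same libraries the summed level of 14 cell cycle genes went from 2388 to 2963 TPM down to 869 to 1260 TPM, and that of 10 myeloid genes from 426 to 1909 TPM up to 19473 to 39422 TPM. The microRNA gene MIR6087 was at 22704 to 26427 TPM in the control and TCP libraries. It was at 30134 to 40060 TPM in the palbociclib and combination libraries. The part of these shifts in the values below was not tested. All 8 AML identity genes, including CD33, SPI1 and FLT3, were detected in every library. The study grew AML cells with HS-5 stromal cells, and palbociclib replicate 2 stood apart with 78.4 TPM over 12 stromal genes, against 1.32 to 14.6 TPM in the other libraries, with POSTN at 0 in all 8 of them. The counts of members called under palbociclib and the medians over all members are given with and without this library. Other values from the palbociclib group include it unless stated.

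The members ranged widely in level. MRPL33, a small protein of the large subunit with a bacterial homolog, had the highest mean level, from 413 TPM in palbociclib replicate 2 to 602 TPM in TCP replicate 1. MRPL18 (302.9 TPM on average over the 8 libraries), MRPS34 (256 TPM), MRPL51 (245 TPM) and MRPL36 (207 TPM) followed. The lowest mean levels were those of MRPL22 (10.0 TPM), MRPS18B (14.97 TPM) and MRPS9 (21.2 TPM). Both ends of this order mixed large and small subunit proteins, and a member's mean level and its log2 fold change under the combination had a Spearman correlation of 0.24 across the 77 genes, a description over genes that share the same libraries.

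Summed over all members, the transcripts of the mitochondrial ribosome took a smaller share of all TPM in both groups that held palbociclib. The sum was 7663 and 7864 TPM in the control libraries, 7534 and 8293 TPM under TCP, 5888 and 5454 TPM with palbociclib, and 5427 and 5299.6 TPM when both were given. The 4 libraries without palbociclib all lay above the 4 with it. The group means were 7763 ± 142 TPM (SD, n = 2) in control cells, 7913 ± 536 TPM under TCP, 5671 ± 306 TPM with palbociclib and 5363 ± 89.97 TPM with the combination, the last of which correspond to 73.0% and 69.1% of control. In bulk RNA, fewer cells of a type and less RNA per cell cannot be told apart. With 2 libraries a group, an exact permutation test of 1 sum cannot go below a two-sided p of 0.333.

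**Figure D1:**
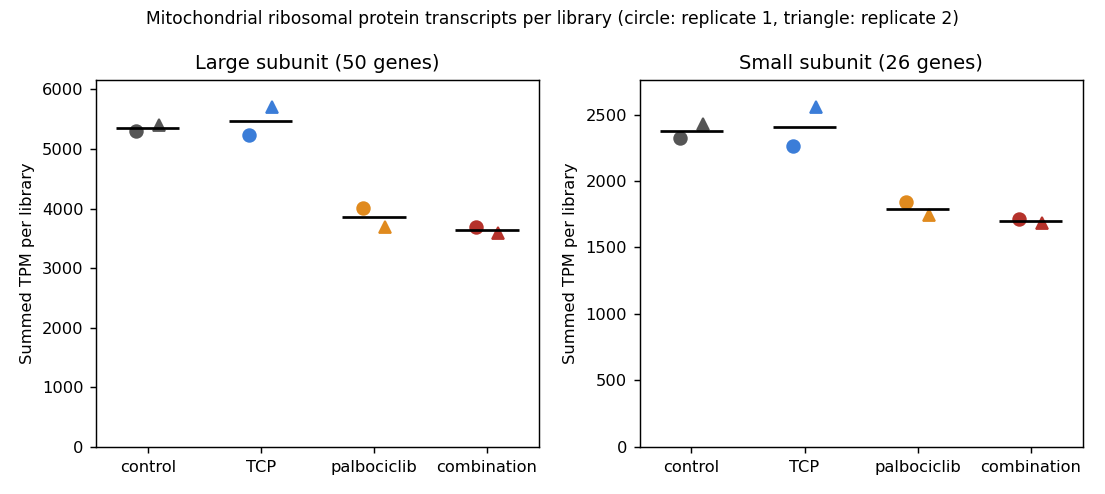
Summed TPM of the large subunit genes (left, 50 genes) and the small subunit genes (right, 26 genes) in each library; circles are replicate 1, triangles replicate 2 and lines the group means. The palbociclib and combination libraries lie below all control and TCP libraries in both subunits.

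Both subunits moved together. The large subunit genes summed to between 5235 and 5705 TPM in the control and TCP libraries and to between 3594 and 4016 TPM in the palbociclib and combination libraries. The small subunit genes summed to between 2261 and 2557 TPM and between 1685 and 1840 TPM in these libraries. The ratio of the large to the small subunit sum lay between 2.11 and 2.32 in all 8 libraries, and each library with palbociclib was below each library without it, by a small step from 2.22 to 2.18.

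To compare single genes, log2(TPM + 1) was tested with limma over 14151 genes with at least 1 TPM in 2 or more libraries, with Benjamini-Hochberg adjustment over all of them. A gene is said to have changed, risen or fallen at an adjusted p below 0.05, and DEG names a change of 1 or more log2 units, up or down, with an adjusted p below 0.01. Because 1 is added to each TPM, the fold changes of low genes are understated. The median of all tested genes was itself below control, with log2 fold changes of -0.04 (TCP), -0.16 (palbociclib) and -0.22 (combination), and each member's value can be read against this shift.

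Under TCP alone no member changed by limma, in either direction, where 0.141% of all genes fell and 0.290% rose. The median log2 fold change over the members was 0.03, with 37 below and 40 above 0. MRPL55, a large subunit protein, was the only member with an unadjusted p below 0.05. It was at 48.5 and 43.9 TPM in control libraries and 54.8 and 65.2 TPM under TCP (log2 fold change 0.37, standard error 0.11, adjusted p = 0.329 from limma). MRPL53 (0.23) and MRPS12 (0.24), the latter a protein of the decoding center, had the next highest log2 fold changes. The lowest were those of MRPL30 (-0.18), MRPL44 (-0.17) and MRPS31 (-0.16). Both TCP libraries lay below both control libraries for 13 members and above them for 9, shares that can be read against 22.3% and 12.4% of all genes. TCP replicate 2 had higher values than TCP replicate 1 for 51 of the 77 members, and without it the median of the members relative to the median gene went from 0.07 to -0.02.

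Under palbociclib 60 of the 77 members fell, 1 rose and 16 did not pass the test, by limma with Benjamini-Hochberg adjustment. Among all genes tested, 30.2% fell and 14.8% rose. The median log2 fold change over the members was -0.48, or -0.33 relative to the median gene, and 73 of the 77 members were below 0. Both palbociclib libraries lay below both control libraries for 69 members, against 49.7% of all genes. The decreases were mostly smaller than 2-fold, and 3 members were DEG, where 4.56% of all genes were lower DEG. With the replicate number as a block in the model 3 members rose, MRPL55, MRPS6 and MRPS11, where 37.1% of all genes fell and 18.4% rose.

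The strongest decrease under palbociclib was that of MRPS9, the homolog of a bacterial protein of the small subunit head. Its gene lies on chromosome 2 of GRCh37, on the plus strand from 105654527 to 105716418. MRPS9 was at 30.3 and 31.6 TPM in control cells, 31.9 and 28.8 TPM under TCP, 14.8 and 10.6 TPM under palbociclib, and 11.6 and 9.80 TPM under the combination. The control and TCP libraries overlapped, while all 4 libraries with palbociclib lay well below them. The log2 fold change under palbociclib was -1.24 (standard error 0.16, adjusted p = 0.00121 from limma).

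The other members that were DEG under palbociclib came from both subunits. MRPS28, a small subunit protein, was at 117 and 130.4 TPM in control cells and 61.1 and 55.6 TPM under palbociclib (log2 fold change -1.07, standard error 0.10, adjusted p = 0.000394 from limma). MRPL37, a large subunit protein specific to mitochondrial ribosomes on chromosome 1 from 54649714 to 54691137, was at 134.7 and 133.01 TPM in control cells and 66.9 and 60.9 TPM under palbociclib (-1.06, standard error 0.08, adjusted p = 0.000155). In both genes the palbociclib libraries were at about the same level as each other and far from control. MRPL3 (-0.99), MRPL23 (-0.97) and MRPL39 (-0.97) came next and missed the size that DEG requires. MRPL3 is the homolog of a bacterial protein close to the peptidyl transferase center, and MRPL23 of a protein at the exit of the peptide tunnel.

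Palbociclib replicate 2, the library with stromal transcripts, was lower than replicate 1 for all but 7 members. Without it, 34 members fell, none rose and 2 were DEG, with a median of -0.42, and the lone remaining library was then assumed to vary like the other groups. The shares of all genes dropped as well, to 18.1% that fell and 9.60% that rose. Of the 61 members called under palbociclib, 27 lost the call without this library, 20 without control replicate 2 and 18 without control replicate 1.

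Under the combination 64 of the 77 members fell, 2 rose and 11 did not pass the test, where 37.6% of all genes fell and 15.9% rose. The median log2 fold change over the members was -0.59, or -0.37 relative to the median gene, with 74 members below 0. Both combination libraries lay below both control libraries for 72 members, against 54.2% of all genes. The lower DEG numbered 11, where 7.82% of all genes were lower DEG.

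**Figure D2:**
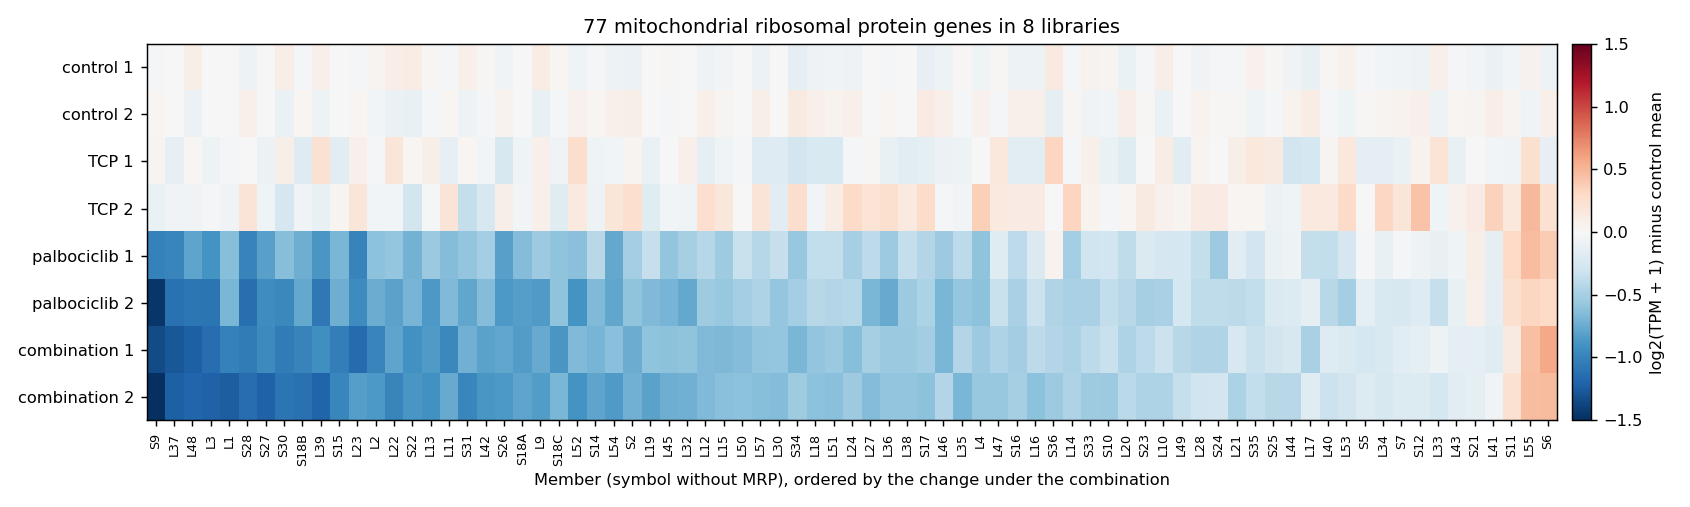
Difference of log2(TPM + 1) from the control mean for each of the 77 members (columns, symbols without MRP, ordered by the log2 fold change under the combination) in each library (rows). The 4 lower rows, palbociclib and combination, are blue for nearly all members, and MRPS11, MRPL55 and MRPS6 at the right are red.

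MRPS9 had the strongest decrease again, at -1.45 on the log2 scale under the combination (standard error 0.16, adjusted p = 0.000413 from limma), and its mean TPM was 0.346 times that of control. MRPL37 followed at 54.9 and 56.8 TPM (log2 fold change -1.25, standard error 0.08, adjusted p = 4.79e-05). MRPL48 went from 60.9 and 53.4 TPM in control cells to 23.9 and 24.5 TPM, a log2 fold change of -1.21. In each of these genes both control libraries were more than 2-fold above both combination libraries.

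MRPL3 and MRPL1, homologs of bacterial large subunit proteins, completed the lowest members together with MRPS28. MRPL3 went from 182 and 183 TPM in control cells to 82.3 and 78.5 TPM (log2 fold change -1.17), and MRPL1 from 30.7 and 30.4 TPM to 14.6 and 12.4 TPM (-1.13). MRPL1 stood at 19.2 and 18.6 TPM under palbociclib, between control and the combination, with no overlap of these 3 groups. MRPS28 was at 59.1 and 55.5 TPM (-1.09), close to its palbociclib level.

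The remaining lower DEG under the combination were MRPS27 (-1.08), MRPS30 (-1.07), MRPS18B (-1.06), MRPL39 (-1.06) and MRPS15 (-1.004), of which MRPS27 was named after its values were seen. MRPS30, a large subunit protein in spite of its symbol, was at 138 and 121 TPM in control cells and 61.9 and 59.9 TPM under the combination. The MRPS18 paralogs, related to 1 bacterial protein, all fell under the combination: MRPS18B by -1.06, MRPS18A, which sits in the large subunit, by -0.81, and MRPS18C by -0.78. MRPS36, the member outside the ribosome, was at 33.9 and 28.1 TPM in control cells and 22.5 and 20.9 TPM under the combination and did not pass the test (-0.49, adjusted p = 0.0678).

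The members that did not fall were few. MRPS6, the homolog of a bacterial protein of the small subunit platform, was at 124 and 137 TPM in control cells, 120 and 153 TPM under TCP, 171 and 161 TPM under palbociclib, and 195 and 181 TPM under the combination. Its control and palbociclib libraries did not overlap, and it rose under the combination (log2 fold change 0.52, standard error 0.12, adjusted p = 0.0103 from limma) and missed the threshold under palbociclib (0.34, adjusted p = 0.0567), which it passed with the replicate block. MRPL55 was at 63.9 and 57.8 TPM under palbociclib and 63.4 and 64.2 TPM under the combination, and it rose in both (0.39, adjusted p = 0.0231, and 0.46, adjusted p = 0.0101). All 6 treated libraries of MRPL55 lay above both control libraries. These calls were not firm: under the combination MRPS6 missed the threshold without control replicate 1 (0.45) or combination replicate 1 (0.47), and MRPL55 without control replicate 2 (0.39) or combination replicate 2 (0.45). Under palbociclib MRPL55 missed it without control replicate 2 (0.32), palbociclib replicate 1 (0.32) or palbociclib replicate 2 (0.46).

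MRPS11, the homolog of another protein of the platform, was at 27.9 and 29.6 TPM in control cells, 35.5 and 34.2 TPM under palbociclib and 31.5 and 33.7 TPM under the combination. Its log2 fold changes of 0.27 (adjusted p = 0.0608) and 0.18 (adjusted p = 0.170) did not pass the test, though the first did with the replicate block. MRPL41 (-0.12), MRPS21 (-0.14) and MRPL43 (-0.15) had the next highest log2 fold changes under the combination. Under palbociclib those places were taken by MRPS21 (0.09), MRPS5 (-0.08) and MRPL43 (-0.09). MRPL33, the most abundant member, was at 554 and 495 TPM in control cells and 497 and 435 TPM under the combination, which overlapped (-0.17, adjusted p = 0.301).

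**Figure D3:**
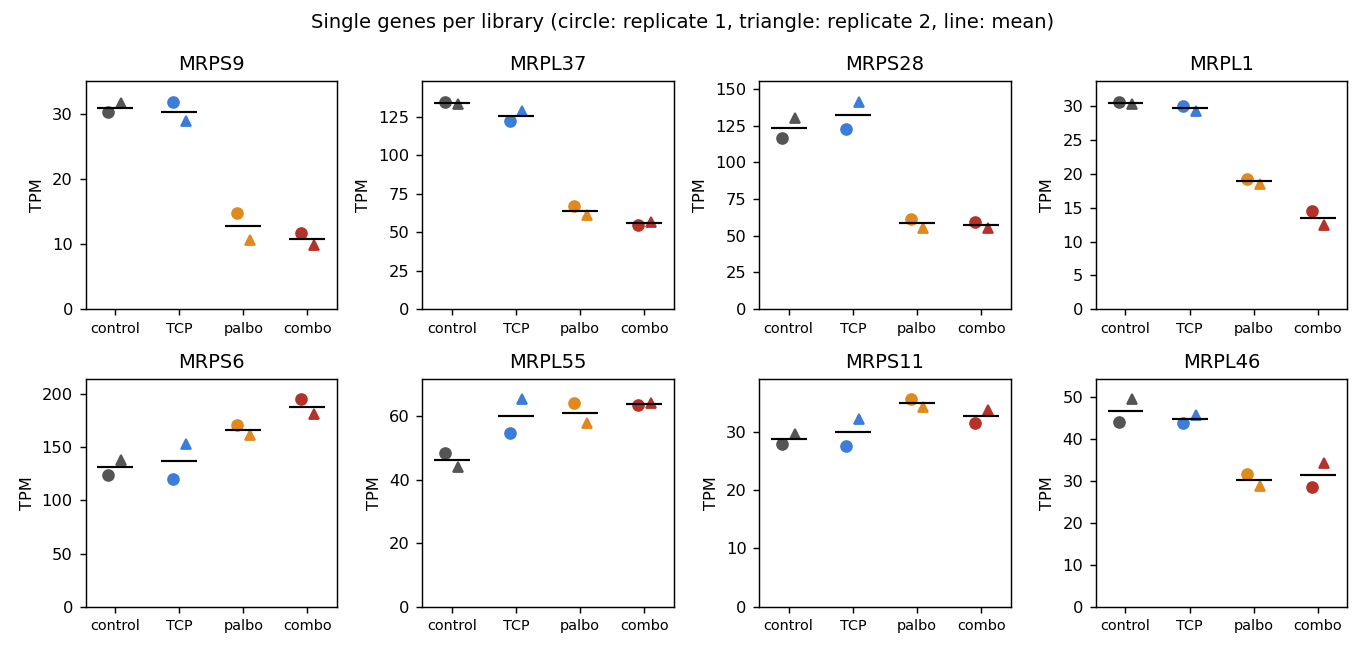
TPM per library of 8 members (palbo, palbociclib; combo, the combination); circles are replicate 1, triangles replicate 2, lines the group means, and each panel has its own axis from 0. MRPS9, MRPL37, MRPS28, MRPL1 and MRPL46 are lower in every library with palbociclib than in control, and MRPS6, MRPL55 and MRPS11 are higher.

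How far the calls depended on the scaling between libraries was examined with a median-ratio scaling, which sets the median gene of each library to about the same level. It moved the median gene to 0 in both comparisons, with 19.5% of all genes lower and 20.9% higher under palbociclib, and 22.7% lower and 24.1% higher under the combination. Among the members, 35 then fell and 4 rose under palbociclib, and 36 fell and 3 rose under the combination, with medians of -0.31 and -0.35, while DEG went to 1 and 2. Relative to the median gene the members' medians went from -0.33 to -0.31 and from -0.37 to -0.35. This scaling divides each library by a single factor, so that difference could hardly move and says nothing of how firm the decreases were. MRPS6, MRPL55 and MRPS11 had positive log2 fold changes under every alternative, and under this scaling MRPS11 rose under both palbociclib (0.44) and the combination (0.42). Of the 61 members changed under palbociclib, 33 kept their call in all 16 alternatives, as did 36 of 66 under the combination, and all of these were lower than control.

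The sequences before the gene starts of the most reduced and the most raised members are shown, since these genes moved in opposite directions in the same libraries. They are the 3 members with the lowest and the 2 with the highest log2 fold change under the combination among those with at least 200 bases free of coding gene exons, and were taken from RefSeq (windows of 250 bases before the start) and placed on GRCh37 by exact match. Each is written 5′ to 3′ on the gene's strand and ends at or short of the RefSeq gene start, and capitals mark a match to a motif named below. MRPS9 is at chr2:105654277-105654526 (plus strand), MRPL48 at chr11:73498669-73498916 (plus), MRPL3 at chr3:131221828-131222065 (minus), MRPL55 at chr1:228297014-228297250 (minus) and MRPS6 at chr21:35445628-35445848 (plus). In GENCODE the gene of MRPS6 begins at 35445524, upstream of the printed bases, which carry no annotated coding gene exon.
MRPS9: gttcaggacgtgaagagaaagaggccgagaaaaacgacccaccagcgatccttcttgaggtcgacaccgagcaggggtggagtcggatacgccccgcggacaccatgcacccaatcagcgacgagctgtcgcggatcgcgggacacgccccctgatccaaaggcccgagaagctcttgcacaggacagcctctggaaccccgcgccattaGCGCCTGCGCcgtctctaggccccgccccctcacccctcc
MRPL48: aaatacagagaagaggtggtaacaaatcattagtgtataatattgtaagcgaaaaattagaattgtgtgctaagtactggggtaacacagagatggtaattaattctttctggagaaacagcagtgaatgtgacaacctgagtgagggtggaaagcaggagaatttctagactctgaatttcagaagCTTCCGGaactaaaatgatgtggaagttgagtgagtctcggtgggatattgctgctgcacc
MRPL3: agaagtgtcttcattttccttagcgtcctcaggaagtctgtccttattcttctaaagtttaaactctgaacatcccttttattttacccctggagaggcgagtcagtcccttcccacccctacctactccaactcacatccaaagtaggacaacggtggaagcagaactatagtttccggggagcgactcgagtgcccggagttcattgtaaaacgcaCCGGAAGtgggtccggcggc
MRPL55: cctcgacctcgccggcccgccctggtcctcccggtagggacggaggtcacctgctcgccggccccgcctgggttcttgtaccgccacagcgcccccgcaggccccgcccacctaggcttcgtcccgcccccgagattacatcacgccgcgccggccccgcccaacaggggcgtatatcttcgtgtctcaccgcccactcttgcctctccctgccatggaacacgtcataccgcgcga
MRPS6: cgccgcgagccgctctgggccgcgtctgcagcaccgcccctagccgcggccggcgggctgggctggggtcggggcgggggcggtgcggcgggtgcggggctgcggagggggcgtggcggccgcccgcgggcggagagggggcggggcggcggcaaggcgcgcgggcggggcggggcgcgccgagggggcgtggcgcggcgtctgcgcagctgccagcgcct

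The 4 motifs searched, on both strands, were that of NRF1, nuclear respiratory factor (10 letters with 1 free position, whose match is the stretch in capitals in MRPS9), CCGGAAG (the core of ETS factors such as GABPA), the E-box CACGTG (bound by MYC with MAX, among others) and AAGATGGC (YY1). Matches of different motifs overlapped in 0 of the 68 member windows that RefSeq provided, and the windows of MRPL10, MRPL2, MRPS28, MRPL13, MRPL15, MRPL23, MRPS36, MRPL35 and MRPL21 were not analysed here. The NRF1 letters were in 8 of the 68 windows (11.8%), against 10.62% of the windows of 9671 tested genes. ETS letters were in 22 (32.4%, against 16.45%), the E-box in 6 (8.8%, against 8.99%) and YY1 letters in 5 (7.4%, against 1.96%). The window of MRPS9 held the NRF1 letters from 40 bases before the start, and those of MRPL48 and MRPL3 held the ETS letters from 63 and 32 bases before it. None of the 4 motifs was in the printed bases of MRPL55 and MRPS6.

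Members with and without a match are described by their medians. Those with the ETS letters had a median log2 fold change of -0.59 under the combination and those without of -0.58. For the NRF1 letters the medians were -0.59 and -0.58, for the E-box -0.73 and -0.57, and for the YY1 letters -0.57 and -0.59. A match is a stretch of letters and not a measured binding site.

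MRPL46 and MRPS11 start from the same short stretch of chromosome 15. MRPL46 lies on the minus strand from 89002708 to 89010621 and MRPS11 on the plus strand from 89010684 to 89024007, so 62 bases separate their starts at chr15:89010622-89010683, with none of the 4 motifs. These bases are given on the plus strand of GRCh37.
MRPL46-MRPS11: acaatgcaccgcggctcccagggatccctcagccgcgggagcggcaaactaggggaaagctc

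MRPL46, a large subunit protein specific to mitochondrial ribosomes, was at 44.02 and 49.4 TPM in control cells, 31.7 and 28.7 TPM under palbociclib and 28.6 and 34.2 TPM under the combination. It fell in both (log2 fold changes -0.61, adjusted p = 0.00497, and -0.56, adjusted p = 0.00556, from limma), while no library of MRPS11 with palbociclib was below a control library. Under median-ratio scaling the value of MRPL46 under the combination was -0.32 and missed the threshold.

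A partner was defined as a coding gene on the other strand that runs away from the member. Their starts had to lie at most 1000 bases apart or overlap by at most 100 bases. Such a partner was found for 18 of the 77 members (23.4%) and for 1383 of 11226 tested coding genes (12.3%), given as counts with no test. The 16 tested partners that are not members included 8 that fell and 1 that rose under the combination, where 37.6% of all genes fell and 15.9% rose. The partners' log2 fold changes had a median of -0.46, against -0.22 over all genes. These neighbours were named after their values were seen. SKA3, a mitotic spindle protein that starts 106 bases from MRPL57, had a log2 fold change of -2.04 where MRPL57 had -0.62. PSMA2, a proteasome subunit beside MRPL32, had -0.96 where MRPL32 had -0.66, and NDUFS6, a complex I subunit beside MRPL36, had -0.83 where MRPL36 had -0.57. ZNF189, a zinc finger gene beside MRPL50, rose by 0.68 where MRPL50 fell (-0.63). SARS2, the mitochondrial seryl-tRNA synthetase beside MRPS12, fell (-0.78), and MRPS12 did not pass the test (-0.17, adjusted p = 0.304).

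Adding TCP to palbociclib changed no member by limma at an adjusted p below 0.05, where 1.44% of all genes fell and 2.05% rose. Of the 77 members, 10 had an unadjusted p below 0.05. The median log2 fold change of the combination against palbociclib was -0.10 over the members and -0.07 over all genes, and that of the members was -0.18 without palbociclib replicate 2 and -0.043 without palbociclib replicate 1. Both combination libraries lay below both palbociclib libraries for 36 members, against 37.2% of all genes. MRPL1 had the lowest value (-0.46, standard error 0.10, 95% interval -0.69 to -0.23, adjusted p = 0.0548), and it passed the threshold with the replicate number as a block in the model, the only member to do so. MRPS18B (-0.31) and MRPS15 (-0.29) came next, and MRPS6 (0.18), MRPL53 (0.13) and MRPL40 (0.13) had the highest values.

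Adding palbociclib to TCP lowered most members. In the combination against TCP, 66 members fell and 1, MRPS6 (0.47, adjusted p = 0.0175), rose, where 33.8% of all genes fell and 16.5% rose. The median was -0.63 over the members and -0.18 over all genes, and 9 members were DEG, where 6.70% of all genes were lower DEG. MRPS9 (-1.42), MRPL48 (-1.19) and MRPS28 (-1.19) were lowest, and MRPS11 (0.12) and MRPL55 (0.09) followed MRPS6 at the other end without passing the test.

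The interaction asks whether the combination departed from the sum of both single effects on the log2 scale. No member passed the test, and none of the 14151 genes did (0%), while 3 members and 904 genes had an unadjusted p below 0.05. The median over the members was -0.12, with 68 of 77 below 0, and that over all genes was -0.03, with 7881 of 14151 below 0. Without TCP replicate 2, 52 members were below 0, and the median relative to the median gene went from -0.10 to -0.011. MRPS36 (-0.45), MRPL1 (-0.43, standard error 0.14, adjusted p = 0.626) and MRPL47 (-0.41, adjusted p = 0.562) were lowest, and MRPS6 (0.12), MRPL46 (0.11) and MRPS26 (0.09) highest. MRPL47 was at 54.3 and 53.0 TPM in control cells, 60.1 and 59.6 TPM under TCP, 47.1 and 42.4 TPM under palbociclib and 38.6 and 35.8 TPM under the combination, so that TCP libraries lay above control libraries and combination libraries below palbociclib libraries.

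Decreases were found for genes of both subunits and of both origins. Under the combination 43 of 50 large subunit genes and 21 of 26 small subunit genes fell, with medians of -0.60 and -0.54. Over all genes 37.6% fell, with a median of -0.22. Origin was assigned from the number in the symbol, so single members may be misplaced. Of 46 members counted as having a bacterial homolog, 38 fell (median -0.58). Of 30 members counted as specific to mitochondrial ribosomes, 26 fell (median -0.60). Under palbociclib the medians were -0.49 and -0.46 for the subunits and -0.49 and -0.45 for the origins. MRPL55, of the large subunit, and MRPS6, of the small subunit, were the members that rose under the combination.

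Transcripts of mitochondrial ribosome proteins with other symbols were also lower. Of 6 tested, 5 fell under the combination, with a median of -0.39, where 37.6% of all genes fell. ICT1, a peptidyl-tRNA hydrolase built into the large subunit, was at 120 and 107 TPM in control cells and 54.5 and 44.5 TPM under the combination (-1.18, adjusted p = 0.000577 from limma). GADD45GIP1 (-0.50), PTCD3 (-0.45), CHCHD1 (-0.34) and DAP3 (-0.33), a GTP-binding protein of the small subunit, also fell, and AURKAIP1 did not pass the test (-0.27, adjusted p = 0.155).

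**Figure D4:**
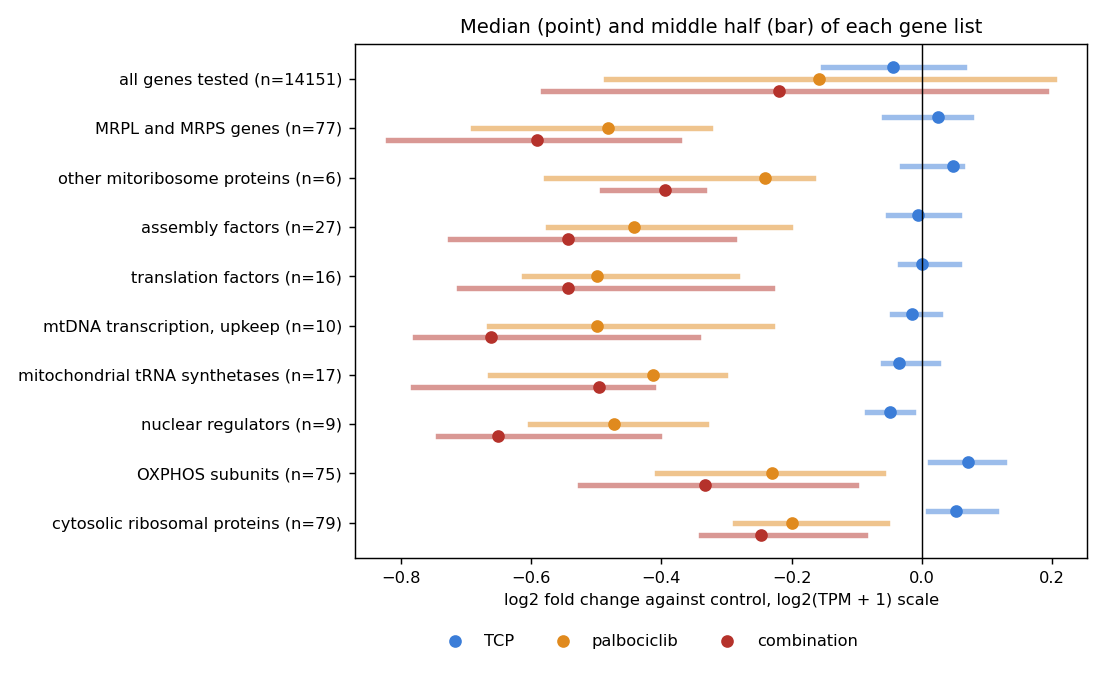
Median log2 fold change (points) and the range from the lower to the upper quartile (bars) of each gene list against control, on the log2(TPM + 1) scale, for TCP, palbociclib and the combination. The MRPL and MRPS genes have medians of 0.03, -0.48 and -0.59, and the cytosolic ribosomal proteins -0.25 under the combination.

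Transcripts of the machinery that builds and serves the mitochondrial ribosome also fell in large part. Of 27 assembly and rRNA modification factors, 18 fell and 1 rose under the combination (median -0.54), where 37.6% of all genes fell and 15.9% rose. MRM1, which methylates the large ribosomal RNA, was at 26.3 and 27.6 TPM in control cells and 8.37 and 7.79 TPM under the combination (-1.62), a lower value than that of any member, and RPUSD3, a pseudouridine synthase, had -1.19. MTERF4, which works with a methyltransferase late in assembly, went the other way, from 21.01 and 20.3 TPM to 36.2 and 35.2 TPM (0.76, adjusted p = 0.000356 from limma), and MPV17L2 did not pass the test (0.23).

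Of 16 translation factors and mRNA-binding proteins, 11 fell under the combination (median -0.54), where 37.6% of all genes fell. Among those that fell were the release factor MTRF1 (-0.91) and SLIRP (-0.78), which stabilizes mitochondrial mRNA. MTIF3 (-0.17) and GFM2 (0.04), factors of initiation and of ribosome recycling, did not pass the test. Of 17 mitochondrial aminoacyl-tRNA synthetases, 14 fell (median -0.50), with FARS2 lowest (-1.09), whereas HARS2 (0.26) and CARS2 (0.01) did not pass. Of 10 proteins of mitochondrial DNA transcription, DNA upkeep or RNA decay, 6 fell (median -0.66). PNPT1, an RNA-degrading enzyme (-1.09), and TFB2M (-0.92) were lowest, and the polymerases POLG (-0.20) and POLRMT (-0.01) did not pass the threshold. The genes encoded in mitochondrial DNA were not analysed here.

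Genes of nuclear factors known to act on mitochondrial genes were lower as well. Of 9 tested, 8 fell under the combination and none rose, with a median of -0.65, where 37.6% of all genes fell and 15.9% rose. NRF1 was at 15.5 and 14.9 TPM in control cells and 8.04 and 6.96 TPM under the combination (-0.94), GABPA had -0.65, GABPB1 -0.74, YY1 -0.40, PPRC1 -0.69, PPARGC1B -0.58 and MAX -0.28. MYC went from 865 and 859.7 TPM to 471 and 431 TPM (-0.94, adjusted p = 9.14e-05 from limma). ESRRA did not pass the test (0.15, adjusted p = 0.398). PPARGC1A did not reach 1 TPM in 2 libraries and was not tested.

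Genes of the cytosolic ribosome and of the respiratory chain had medians nearer to that of all genes. Of 79 cytosolic ribosomal protein genes, 35 fell and 1 rose under the combination, with a median of -0.25, near the -0.22 of all genes. Among all genes, 37.6% fell and 15.9% rose. Of 75 nuclear subunits of oxidative phosphorylation, 40 fell and 3 rose, with a median of -0.33. For the members these counts were 64 and 2 of 77, with a median of -0.59. No test was made between lists, and their genes share the same libraries.

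Some members may share reads with other features, and whether the authors' counting used the strand is not stated. Exons of 23 members overlap those of another gene with expression values here, and 36 members have a named pseudogene. Overlaps with genes that have no expression values here were not counted. MRPS6 shares 265 bases of exon with SLC5A3 on the same strand, and SLC5A3 was at 21.1 and 26.5 TPM in control cells and 33.3 and 29.9 TPM under the combination (0.40, adjusted p = 0.0263), and reads of that stretch cannot be assigned to either gene with certainty. MRPS24 overlaps the read-through gene URGCP-MRPS24, which was at 101 and 104 TPM in control cells and fell as MRPS24 did (-0.37 and -0.36 under the combination). MRPL53 shares 499 of its 685 exonic bases with CCDC142 on the same strand. CCDC142 reached at most 8.19 TPM and did not change, with log2 fold changes of 0.15 under TCP and 0.16 under the combination. Other overlaps lie on opposite strands and would matter if the counting ignored the strand. Among them, MRPS18A shares 705 of its 1385 exonic bases with RSPH9, and MRPS34 shares 341 of 1092 with EME2. MRPL51 shares 383 of 1388 with NCAPD2, and MRPL43 shares 1215 of 3578 with SEMA4G. The pseudogenes MRPL42P5, MRPL45P2 and MRPS31P5 reached at most 4.80, 4.12 and 7.65 TPM.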

How the data were processed

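RNA-seq of MV4-11 cells in 4 groups of 2 libraries was analysed. The authors mapped the reads to GRCh37 (hg19) with Subread, counted them per gene with featureCounts 1.6.4 and deposited TPM, and the submitters' notes also name SAMtools 1.9 and DESeq2 1.26.0. The gene annotation, gene lengths and strand setting are not given in the sources used here. The deposited TPM sum to 1000000 per library and keep no depth, so no counting intervals are given.

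From these TPM, log2(TPM + 1) was computed and 14151 genes with at least 1 TPM in 2 or more libraries were fitted in 1 limma model (version 3.58.1, R 4.3.3) of the 4 groups, with 4 residual degrees of freedom, a mean-variance trend and Benjamini-Hochberg adjustment over all tested genes. The DESeq2 test of the study needs counts, which TPM are not. The members and all gene lists were chosen with earlier results of these data known. Gene positions are from GENCODE 44 on GRCh37, not necessarily the annotation of the counting, and promoter windows are from RefSeq on GRCh38.p14, placed on GRCh37 by exact match (67 of 68).

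Members named by rule were the 5 highest and 3 lowest in level, the 6 lowest and 6 highest log2 fold changes under palbociclib and under the combination, the 3 lowest and highest in each other comparison, MRPS30, MRPS36 and the MRPS18 paralogs, and from other lists the ribosome proteins, the nuclear factors and the 2 extremes at each end under the combination. Names outside this rule are those whose levels or positions a statement turned on, and were chosen after their values were seen, and 1 gene that the rule covers is left out of the text.

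Same-numbered libraries deviated from their group means together, with correlations across genes from 0.169 to 0.491 in all 6 pairs of groups. By a limit set before the fits were compared, this counted as pairing of the libraries. This rests on the values alone. The main model leaves the block out, so its p-values ignore the pairing, and the block was fitted only as an alternative. The alternatives were pseudocounts, filters, quantile and median-ratio scaling, the replicate block, only the groups compared, no trend, and each library left out.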

Additional observations from a re-analysis of the deposited data

How the results depend on the processing

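Fold changes against control depended on the scaling between libraries, since the median gene moved with it, and TPM give no depth from which precision could be set. Under palbociclib, 35 members fell and 4 rose with median-ratio scaling, and 4 rose with quantile normalization, 3 with the replicate block, 2 with a mean of at least 5 TPM and 2 with only the groups compared. The palbociclib DEG were 1 with quantile normalization, 1 with median-ratio scaling and 5 with a pseudocount of 0.1 TPM, and the median over the members was -0.36 and -0.31 with these scalings. Under the combination, 36 members fell with median-ratio scaling, DEG were 4 with quantile normalization and 2 with median-ratio scaling, and the medians were -0.41 and -0.35. In the combination against TCP, 42 fell and 1 was DEG with median-ratio scaling, 3 were DEG with quantile normalization, the medians were -0.43 and -0.48, and none rose with only the groups compared. MRPS5 under the combination turned from -0.23 to 0.0081 with median-ratio scaling, the only reversal among named values that passed the test in either fit. Sign changes of values that passed in neither fit were not counted as reversals. With this scaling 66 members were below 0 under the combination, where the main model had 74. Under palbociclib 65 were, where the main model had 73. Without the filter on low values the medians relative to the median gene were -0.46 under palbociclib, -0.54 under the combination and -0.59 against TCP. In the combination against palbociclib 1 member, MRPL1, fell with the replicate block and with a mean of at least 5 TPM. The block removed no call of the main model and added 5 members under palbociclib, 3 under the combination and 3 in the combination against TCP, while the share of all genes that fell went from 30.2% to 37.1%, from 37.6% to 42.9% and from 33.8% to 40%. Beside the scalings, whose construction moves the median gene, the cause of these differences was not tested.

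With each library left out in turn, between 34 and 60 members fell and between 0 and 3 rose under palbociclib, with 2 to 5 DEG, and between 50 and 65 fell and between 1 and 2 rose under the combination, where 18.1% to 33% and 25.6% to 40.2% of all genes fell. In the combination against TCP between 0 and 1 rose, with medians from -0.63 to -0.52, or -0.49 to -0.30 relative to the median gene. The median of the combination against palbociclib ranged from -0.18 to -0.043. Relative to the median gene, the median under TCP ranged from -0.017 to 0.13 and that of the interaction from -0.17 to -0.011. The lowest palbociclib count and the -0.18 came without palbociclib replicate 2, and the lowest value for TCP without TCP replicate 2. In these fits the group left with 1 library was assumed to vary like the others. Of the log2 fold changes of 83 named genes over all alternatives, 5964 stayed on their side of the threshold, 295 lost it and 60 gained it.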
